A study of Drosophila melanogaster with 2 samples.

Results

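The trithorax group genes brm, mor, osa, Snr1, trx, ash1 and tara were examined for binding of an NFAT-eGFP fusion protein in Drosophila melanogaster embryos. The 7 genes were listed by name for their known function, with earlier results of these data known, and make up 7 of 13968 protein-coding genes on the chromosome arms. A peak was assigned to a gene when its summit lay in the gene body or within 5 kb of it (Ensembl genes, dm6 coordinates). The study mapped NFAT, a Rel-domain transcription factor, by chromatin immunoprecipitation and sequencing (ChIP-seq). Transgenic flies of the strain NFAT-GFP carried the fusion to green fluorescent protein, inserted so as to target NFAT. Sheared chromatin of whole embryos aged 0 to 24 h was immunoprecipitated through the GFP tag. Biological replicates 1 and 2 form the only group, so the design holds no second condition, and no control immunoprecipitation was analysed here. Whole embryos mix all cell types and a day of development, so the values do not say in which cells the protein was bound.

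Trithorax group proteins keep genes, among them the Hox genes, in an active state through development, and oppose the silencing by Polycomb group proteins. In the fly, Brahma (brm) is the ATPase of the Brahma chromatin remodelling complex, a SWI/SNF complex. Moira (mor) and Snr1 are core subunits of that complex, and Osa is a DNA-binding subunit that marks its BAP form. Trithorax (trx) methylates lysine 4 and Ash1 (ash1) lysine 36 of histone H3. Taranis (tara) is a nuclear SERTAD family protein found through its genetic interaction with trithorax and Polycomb group genes.

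The ranked lists give each peak an irreproducible discovery rate (IDR), an estimate of the share of peaks ranked this high that would not recur in a repeat. The other 4 lists are thresholded on the IDR. The counts below use a series-level ranked list. Another such list, read as scored between replicates 1 and 2, gives a separate, between-replicate IDR. The larger series-level list held 4899 peaks on the arms. Signal is the authors' own value per peak, with no stated scale, and was compared within a list only. The lists give no read totals, so depth is unknown. Thresholded lists held 2236 peaks in replicate 1 and 3994 in replicate 2.

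All 7 genes held a peak of the larger list, 17 peaks in all, against 52.5% of all protein-coding genes. Of these 17 summits, 1 lay within 1 kb of a transcription start site (TSS) of its own member, at brm. By genes, 1 of 7 members (14.3%) had a summit that close, against 26.6% of all genes. Long genes hold more peaks, and 5 members were in the longest quartile of genes (5000 bp or more), in which 65.6% held a peak. The mor gene was in quartile 3 (56.3%) and Snr1 in quartile 2 (50.7%). Because of how the members were chosen, these counts are descriptions and were not tested. The ranked list gave other counts at the starts of the genes. It held 5076 peaks on the arms at or below a global IDR of 0.01, of which 177 overlapped no peak in any of the 4 thresholded lists. Of these 177 left-out peaks, 22 lay at mor, osa, trx and tara. With them the members held 39 peaks, and 5 of the 7 had a summit within 1 kb of their own TSS, against 27.2% of all genes. In that list 53.2% of all genes held a peak in the body or within 5 kb. One of the 5 was tara, whose summits this close missed the limit between replicates. Their −log10 between-replicate IDR was 0.236, 0.619 and 1.94, where 2 is the limit.

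**Figure D1:**
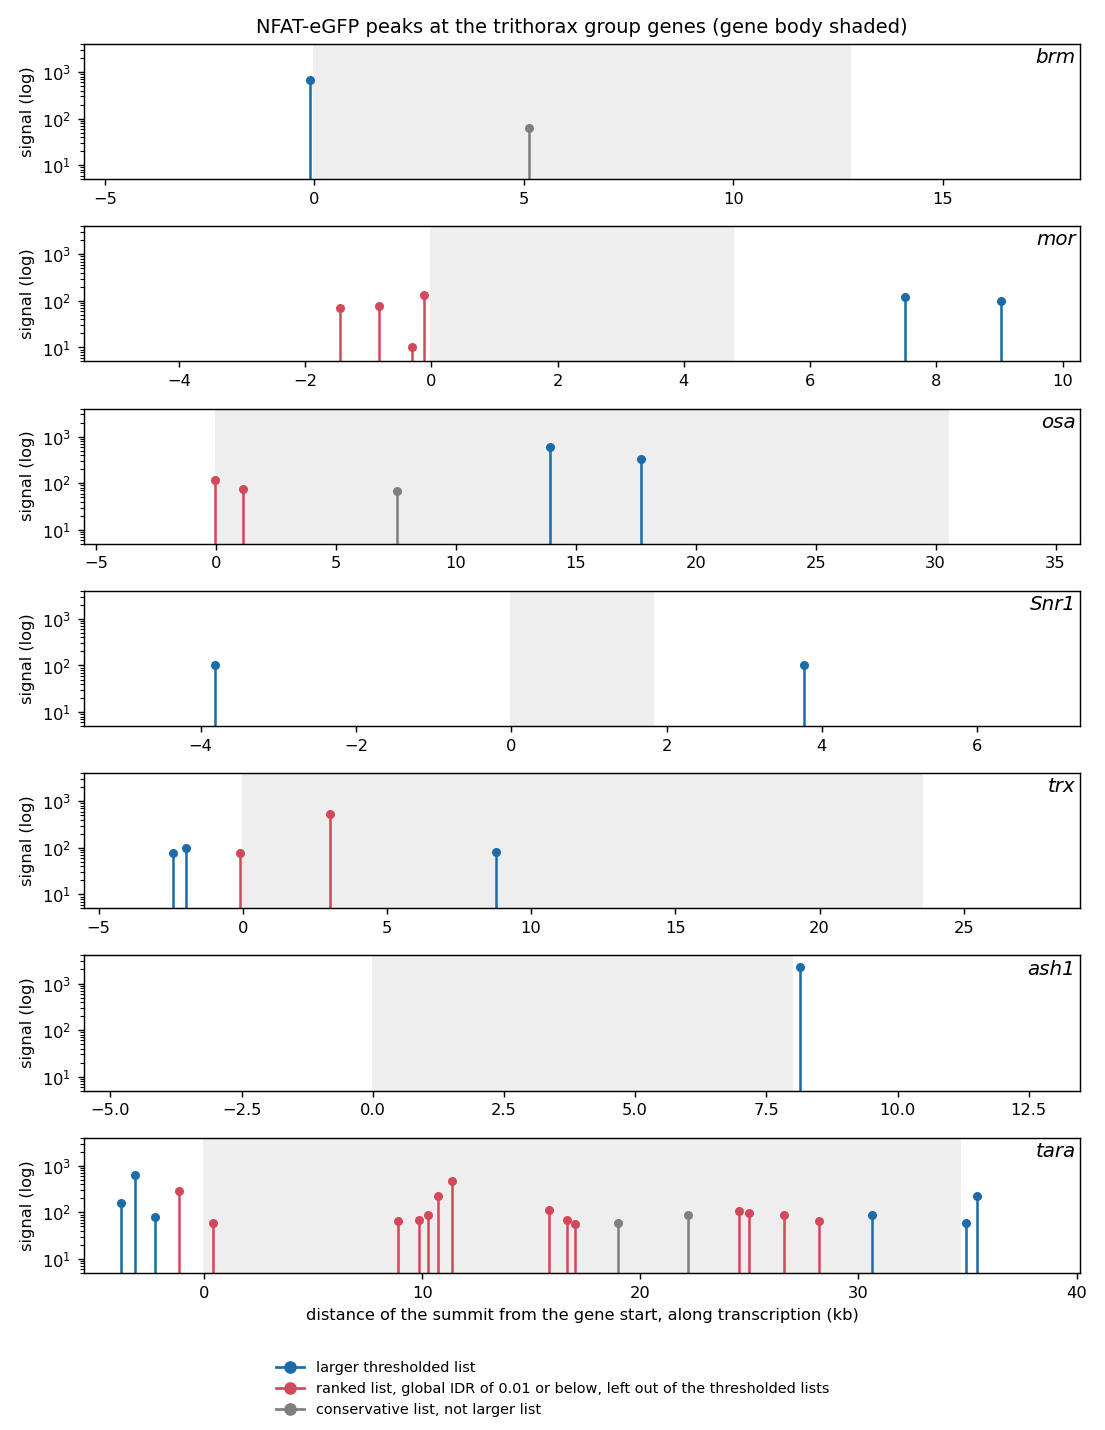
Each panel plots the signal (log scale) of peaks against the distance of their summit from the gene start in kb, along the direction of transcription, with the gene body shaded. The brm start is marked by a thresholded peak (blue), the starts of mor, osa and trx by left-out peaks (red), and tara carries 20 peaks that are thresholded or left out. Grey marks 4 peaks of the conservative list that the larger list does not hold.

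The sequences under 9 of these summits are shown first, because they carry the positions described below. They are the reference sequence (Release 6, the dm6 assembly) of the plus strand within 50 bp of each summit, cut shorter where annotated untranslated bases would begin. Capitals mark matches, on either strand, to the DNA replication-related element TATCGATA (DRE) or its overlapping part CGATA. They also mark the core CACTG, which recurs at fly promoters, the GAGA factor core GAGAG, the Pho core GCCAT, the NFAT core GGAAA and the other motifs searched. The windows are, in order, chr3L:15982928-15983028 (brm promoter), chr3R:15972973-15973073 (mor promoter), chr3R:17718351-17718439 (osa promoter), chr3L:19590571-19590671 (downstream of ash1), chr3R:15965362-15965445 (Rbf2 promoter, downstream of mor), chr3R:17704367-17704467 (inside osa), chr3R:14283841-14283941 (trx intron), chr3R:16222451-16222551 (upstream of tara) and chr3R:16236965-16237065 (tara intron).
brm promoter: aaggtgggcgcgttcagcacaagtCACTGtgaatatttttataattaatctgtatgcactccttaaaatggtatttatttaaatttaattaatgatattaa
mor promoter: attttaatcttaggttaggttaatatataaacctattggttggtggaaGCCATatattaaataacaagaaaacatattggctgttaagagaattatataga
osa promoter: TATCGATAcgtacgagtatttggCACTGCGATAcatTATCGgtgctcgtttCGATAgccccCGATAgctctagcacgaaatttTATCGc
ash1 downstream: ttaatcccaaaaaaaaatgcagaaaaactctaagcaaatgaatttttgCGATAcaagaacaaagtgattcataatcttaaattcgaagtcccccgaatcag
Rbf2 promoter: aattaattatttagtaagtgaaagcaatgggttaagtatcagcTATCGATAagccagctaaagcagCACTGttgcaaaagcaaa
osa internal: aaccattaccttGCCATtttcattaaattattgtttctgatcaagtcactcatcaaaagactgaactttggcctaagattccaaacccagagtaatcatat
trx intron: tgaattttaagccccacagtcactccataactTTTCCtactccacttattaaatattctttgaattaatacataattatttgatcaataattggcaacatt
tara upstream: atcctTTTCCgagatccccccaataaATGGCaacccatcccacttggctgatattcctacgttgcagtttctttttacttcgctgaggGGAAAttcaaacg
tara intron: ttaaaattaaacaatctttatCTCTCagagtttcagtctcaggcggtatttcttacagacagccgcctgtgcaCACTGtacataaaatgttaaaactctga

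The genes of the core subunits of the Brahma complex differed in which lists held a peak at their own start. The promoter of brm, the ATPase gene (FBgn0000212, 3L, 15970082 to 15982869, minus strand, 12788 bp), held the strongest member peak at a member's own start. Its summit lay 109 bp upstream of the TSS shared by 5 of its 6 transcripts, in sequence outside any annotated gene (peak chr3L:15982851-15983129, signal 691, rank 47 of 4899). The overlapping peak had a signal of 294 in replicate 1 (rank 47 of 108240 ranked peaks) and 393 in replicate 2 (rank 55 of 113128), so both replicates placed it near the top. The summits of both replicates lay within 3 bp of it. The conservative list added a weak peak in the brm body, 5114 bp from the gene start and inside the nested gene CG17029 (signal 62.0). It was thresholded in replicate 1 and not in replicate 2.

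The promoter of mor, which encodes the Moira core subunit (FBgn0002783, 3R, 15968134 to 15972913, minus strand, 4780 bp), held a peak in the ranked list only. The summit lay 110 bp upstream of its single TSS (chr3R:15972881-15973164, signal 136), with 57.3 in replicate 1 and 83.6 in replicate 2. A second summit, 310 bp upstream of mor and 75 bp upstream of the divergent gene Hel89B, overlaps this peak and the same replicate peaks. Its own signal was 10.4, and the replicate summits lay 212 and 195 bp from it. A further pair of left-out summits lay 830 and 1453 bp upstream, inside Hel89B (signals 78.8 and 71.3). The thresholded peaks counted for mor lay at the promoters of other genes downstream of it. These summits were 34 bp from the TSS of Rbf2, a retinoblastoma family gene (signal 123), and 8 bp from that of CG5516 (signal 97.8). Replicate 1 had no ranked peak at either of them, and replicate 2 had 75.2 and 61.6.

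Snr1, the SNF5 subunit gene (FBgn0011715, 3R, 5470926 to 5472754, plus strand, 1829 bp), had no reproducible peak at its own start or in its body. The summits counted for it were 13 bp from the TSS of RpL35A, a ribosomal protein gene (signal 104), and within 500 bp of that of CG45100 (signal 100.97), and lay 3812 and 3775 bp from the Snr1 TSS. Replicate 2 listed both as thresholded (69.8 and 59.3). Replicate 1 ranked both (35.0 and 36.4) without passing its own limit. At Snr1 the rule therefore counted promoters of neighbours in a gene-dense window, which 6 other protein-coding genes overlap.

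The osa gene, for the BAP subunit (FBgn0261885, 3R, 17687818 to 17718350, minus strand, 30533 bp), was bound most strongly far inside its body. The leading peak (chr3R:17704282-17704530, signal 590.2, rank 71 of 4899) lay 13933 bp from the start, in an exon of the non-coding gene lncRNA:CR46035 that lies within osa. A second peak, in an intron, lay 17719 bp from the start (chr3R:17700564-17700716, signal 339, rank 226). The first had signals of 226 in replicate 1 and 371 in replicate 2, and the second 129.9 and 207. Both were thresholded in both replicates. The start of osa held a left-out peak, 39 bp upstream of the only TSS (chr3R:17718247-17718530, signal 119), with 53.5 and 69.7 in replicates 1 and 2. Another left-out summit lay 1145 bp into the gene (signal 76.8).

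The strongest peak at the histone methyltransferase genes lay 8134 bp from the start at ash1 and 3012 bp from it at trx. At ash1 (FBgn0005386, 3L, 19590773 to 19598755, minus strand, 7983 bp) the single peak was the strongest of the whole larger list, but it lay at the far end of the gene. Its summit was 152 bp past the 3' end of ash1 and 8134 bp from the ash1 TSS, and 97 bp upstream of the TSS of CG14100 (chr3L:19590474-19590788, signal 2300.2). Replicate 1 gave it 979 (rank 2) and replicate 2 gave it 1326 (rank 1). No peak at or below the IDR limit lay at the ash1 start.

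At trx (FBgn0003862, 3R, 14263358 to 14286903, minus strand, 23546 bp) the strongest peak was one that the thresholded lists do not hold. Its summit lay in an intron, 3012 bp downstream of the only TSS (chr3R:14283790-14283979, signal 519, rank 92 of 132548 ranked peaks). Both replicates held it at a like rank, with 212 in replicate 1 (rank 91) and 315 in replicate 2 (rank 94), and with summits 2 and 5 bp away. A signal of 519 would place above 98.2% of the larger list. A weaker left-out peak lay 93 bp upstream of the trx TSS (signal 77.0, with 27.0 in replicate 1 and 49.1 in replicate 2). The thresholded peaks counted for trx were weaker than the intronic one. Those upstream, at 1964 and 2401 bp, were at the promoter of red (signals 98.2 and 75.9), and another lay in an intron 8783 bp into trx (signal 80.6). That intronic peak was thresholded in replicate 2 (66.8), whereas replicate 1 had 15.2 there and did not pass its limit.

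**Figure D2:**
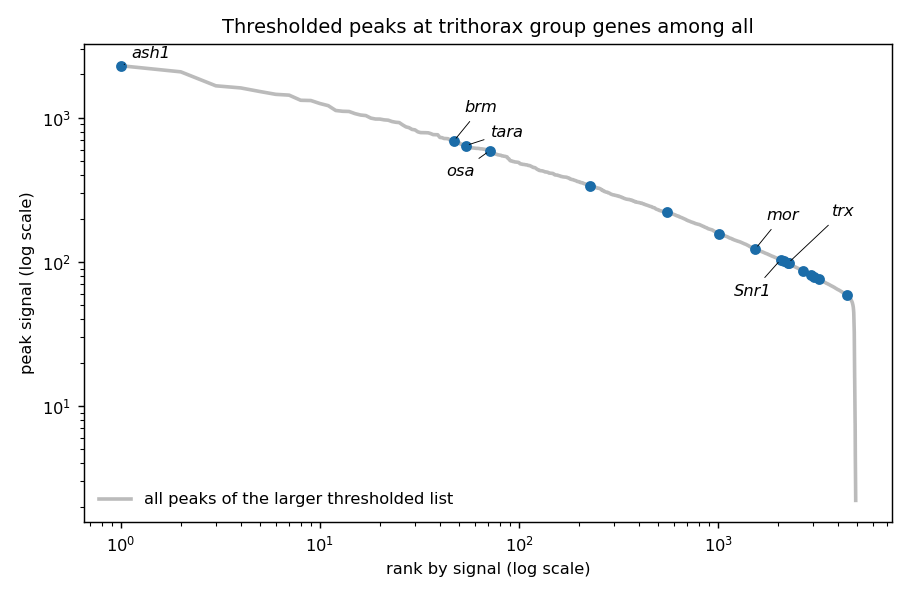
The signal of every peak of the larger thresholded list is plotted against its rank (both log scales, grey line), with the 17 peaks at the members as points and the strongest of each member named. The ash1 peak ranks 1, the brm, tara and osa peaks rank 47, 54 and 71, and the strongest thresholded peaks of mor, Snr1 and trx rank 1536, 2056 and 2243.

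The tara gene (FBgn0040071, 3R, 16225651 to 16260329, plus strand, 34679 bp) held more ranked peaks at the IDR limit than any other protein-coding gene. It had 20 in the ranked list at the IDR limit, and the next genes, ush and CHES-1-like, had 15 each. In the larger thresholded list it had 6, and 55 genes had more. Of 324 genes at least 0.8 times as long as tara, and no longer than its length divided by 0.8, 4.01% had as many thresholded peaks as tara, and their median was 1. Both measures place tara high, but the first place comes from the 14 left-out peaks. Some of these 14 missed the limit between replicates, which is 2 on the −log10 scale. Their between-replicate values were 0.236, 0.619, 1.81 and 1.94. Over all members, 18 of the 22 left-out peaks reached the between-replicate limit, as did 14 of the 17 thresholded ones. Among the thresholded peaks that did not, the trx intronic peak 8783 bp from the gene start had 0.276. The thresholded peaks at CG5516 and 2401 bp upstream of trx had no between-replicate value.

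The tara peaks formed groups along the gene. Upstream of the first TSS lay 4 summits, led by a thresholded peak 3150 bp away (chr3R:16222377-16222608, signal 642, rank 54 of 4899) with 313 in replicate 1 and 339 in replicate 2. Beside it, summits lay at 3826 bp (signal 157), at 2256 bp (78.9, in an exon of the non-coding gene lncRNA:CR45643) and at 1140 bp (289, left out). No other protein-coding gene covers these summits, and the tara TSS was the nearest to each.

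Inside the gene, the summit nearest the first TSS was 418 bp downstream of it (signal 58.8, left out). It was weak in replicate 1 (13.3) and passed the limit of replicate 2 alone (42.6). The main internal group lay 8906 to 11364 bp from the gene start. Its strongest peak was left out (chr3R:16236910-16237164, signal 475, rank 110 of 132548), with 183 in replicate 1 and 275 in replicate 2, and its neighbour had a signal of 222. The second TSS of tara, at position 16242816, had a left-out summit 168 bp upstream (signal 56.4) and others at 538 and 1343 bp (70.3 and 113). Behind the second TSS, signals were 106 or less up to the 3' end. Past the 3' end, a thresholded summit lay 741 bp outside the gene (signal 221, 67.4 in replicate 1 and 157 in replicate 2), and the TSS of bor was the nearest to it at 3025 bp.

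**Figure D3:**
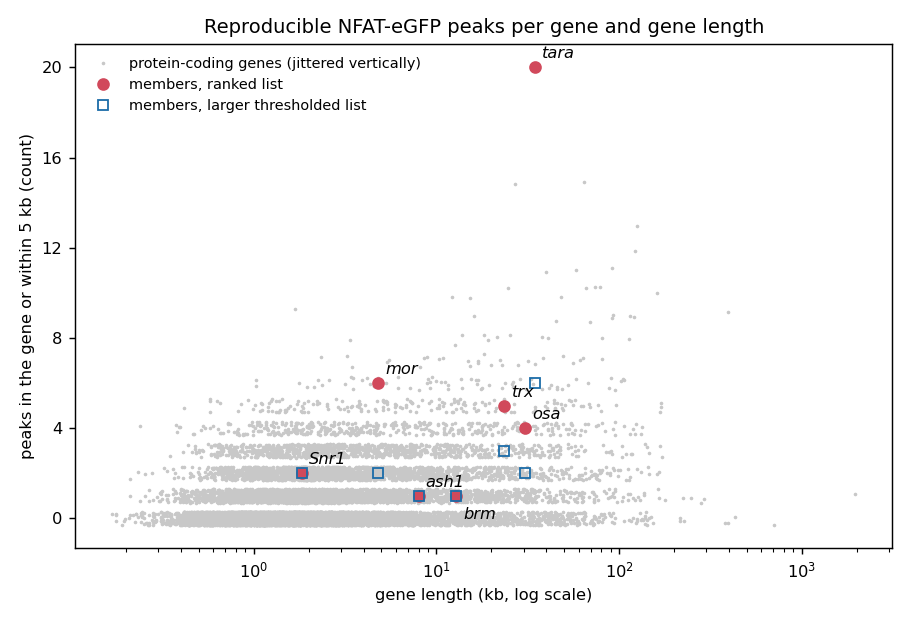
The number of peaks in each protein-coding gene or within 5 kb of it (grey, ranked list at a global IDR of 0.01 or below) is plotted against gene length in kb on a log scale, with the members named. Red circles give the members' counts in that list and blue squares their counts in the larger thresholded list. With 20 peaks tara stands above all other genes, and with 6 at 4780 bp mor stands above most genes of its length. The mor count includes summits nearest to the TSSs of Hel89B, Rbf2 and CG5516, and overlapping summits that share the same replicate peaks.

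The left-out peaks were few in the series and common at these genes. Of all 5076 ranked peaks at the limit, 3.49% were left out, against 22 of 39 (56.4%) at the members. A left-out peak lay at 4 of 7 members and at 1.49% of all protein-coding genes. The run of 14 at tara was the largest of the 81 runs that 20 kb gaps separate, and the next largest had 10. Left-out peaks were unevenly spread over the arms, with 105 on 3R (8.35% of its ranked peaks at the limit), 46 on 2L and 8 on 3L. All 4 members that had them lie on 3R, as does Snr1, which had none, while brm and ash1 lie on 3L. In signal the 22 left-out peaks overlapped the 17 thresholded ones. They ran from 10.4 to 519 with a median of 82.9, against 58.9 to 2300.2 with a median of 103.6. By their own replicate lists, 20 of the 22 overlapped a peak at or below the limit in replicate 2 and 12 in replicate 1. Per the deposited file descriptions, the thresholded lists were derived from a further input file that is not named for the ranked lists. The sources do not say what it holds, and its part in the absence of these peaks was not tested.

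Near the limit of the rule, the values differed little. On the −log10 scale of the global IDR, where 2 is the limit and 5 the highest value given, the lowest members were tara peaks at 2.15, 2.17 and 2.23 (signals 66.4, 58.9 and 58.8). Just outside lay a tara peak at 1.84 (49.8), a peak beyond ash1 at 1.83 (58.2) and a trx intronic peak at 1.82 (64.2).

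More of the member peaks were thresholded in replicate 2 than in replicate 1. Of the 17 thresholded peaks, 16 overlapped a thresholded peak of replicate 2 and 8 one of replicate 1, against 73.3% and 44.2% of all peaks in the larger list. These 8 were in both lists, as were 39.8% of the larger list. They were the peaks at the brm promoter, inside osa (both), upstream of trx, downstream of ash1 and around tara (3 of its 6). Replicate 1 has the shorter list, and the larger list was made from both replicates, so the overlap is not independent of it. With replicate 1 alone, mor and Snr1 had no peak and 5 members kept one.

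**Figure D4:**
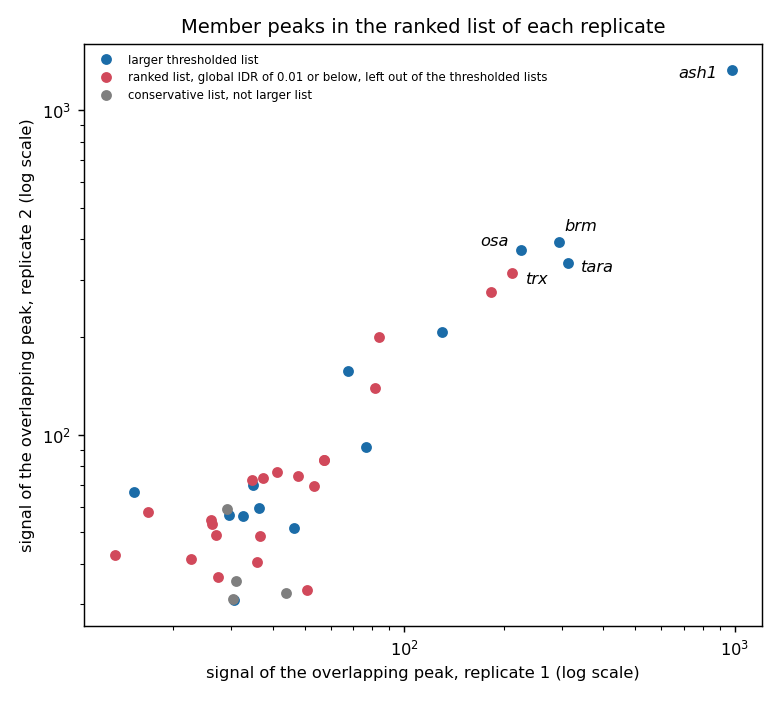
Each point is a member peak, plotted by the signal of the overlapping peak in the ranked list of replicate 1 (horizontal) and of replicate 2 (vertical), both on log scales. Shown are the 39 of 43 peaks that have both values. The strongest peaks of ash1, brm, osa, tara and trx are high in both, and most others lie below 100 in both. The scales of the replicates are not stated to match.

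Most member peaks lay outside the members' own promoters. Of the 17 thresholded summits, 8 fell 500 bp or less from the start of a protein-coding gene, against 56.2% of the larger list, and 7 of these 8 were at a gene other than the member (Rbf2, CG5516, RpL35A, CG45100, CG14100 and red, at red with 2 summits). A further 3 were intronic (26.4% of the larger list), 4 intergenic (11.1%) and 2 in non-coding exons (1.71%). Summits this close to a start were counted as promoter first, and 2 of the 8, at CG5516 and red, lay inside an exon of that gene. Of the 22 left-out summits, 14 were intronic (27.7% of all 177), 7 were at promoters (49.7%) and 1 was intergenic (16.9%). Most of these intronic summits lay in tara, which held 14 of the 22, and the one counted for mor lay in Hel89B. All the intergenic summits, thresholded or left out, were counted for tara. A promoter summit was nearest to a member's own TSS at mor, osa, trx and both TSSs of tara.

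The promoter window of osa held more CGATA matches than any window of the larger list. In the osa promoter sequence printed above, TATCGATA directly abuts the annotated start, and CGATA recurs on either strand along the rest. The full window at that summit, 50 bp to either side, held 8 matches to CGATA, counting both strands and the overlapping pair within the DRE. Of the 4899 windows of the larger list, 0 held that many, and the highest number was 6. The DRE was also in the Rbf2 promoter window and was found in 3.25% of all windows. CGATA was present at 7 of the 17 thresholded member summits, against 20.7% of all, and at 5 of the 22 left-out ones, against 16.4% of all 177. The 7 include the summits at the promoters of Rbf2, CG5516, RpL35A and CG14100, which are not members. With replicate 1 alone, CGATA was at 2 of 8 member summits, against 20.7% of all, and the DRE at 0 of 8.

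CACTG was in 6 of 17 thresholded windows, among them brm, against 29.97% of all, and in 7 of 22 left-out windows, against 25.99% of all left-out ones. GGAAA was in 4 of 17 (26.4% of all) and in 4 of 22 (23.2% of all left-out ones), the latter including the trx intron, and the thresholded peak upstream of tara held 2 matches. TGGAAA, which contains GGAAA, was in 0 of 17 (11.1% of all) and 1 of 22 (7.91%). In windows centred 400 bp from the summits of the larger list, GGAAA was in 27.1% and TGGAAA in 10.5%, much as at the summits. For CACTG the share in those windows was 16.9%, for CGATA 12.1% and for the DRE 0.612%, all lower than at the summits. GCCAT was in 3 of 17 (18.9%) and GAGAG in 3 of 17 (14.1%), and 6 of 22 left-out windows held GAGAG (22.6% of all left-out ones). CAGGTAG, the Zelda motif, was in 1 left-out window, 1140 bp upstream of tara (1.69% of all left-out windows and 0.429% of all thresholded ones). GGTCACACT, the M1BP element, and AGGTGGCGC, a CTCF-like core, were in none of the 39. These are counts of letters in few windows and say nothing of binding by the named factors.

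Most genes of the same pathway outside the 7 also held peaks. Of 40 others, 33 had a thresholded peak in the body or within 5 kb (82.5%, Wilson 95% interval 68.05 to 91.3%, which covers counting error only), and 19 within 1 kb of a TSS (47.5%, 32.9 to 62.5%). Of all protein-coding genes, 52.5% and 26.6% had a peak by these rules. The 40 genes were longer, with a median of 5197 bp against 2164.5 bp for all protein-coding genes. In the longest quartile of genes, 65.6% and 38.7% had a peak by these rules. By the 5 kb rule, 8 of 9 further Brahma complex genes had a peak. So did 11 of 14 genes of the COMPASS histone methyltransferase complexes and their partners, and 14 of 17 further trithorax group genes. These lists were also chosen with earlier results known and were not tested. The strongest peak was counted for Caf1-55, a histone-binding subunit of several chromatin complexes (signal 1215.2), with the TSS of Art3 nearest at 122 bp. The next were those of Wdr82, a COMPASS subunit (932), with the TSS of CG13390 at 87 bp, and of Trl, which encodes the GAGA factor (765, in an intron). Further down were wds, a WD40 subunit of COMPASS (470), Iswi, a remodelling ATPase (421), Dpy-30L1 (355), nej, the CBP acetyltransferase gene (304), mod(mdg4) (255), skd, a Mediator subunit gene (228), and MRG15 (225). Among these 10, the gene's own TSS was the nearest to the peak at nej and at Trl, where CG42507 has a TSS at the same distance. No thresholded peak was found for polybromo, Set1, Utx, Hcf, vtd, E(bx) and z.

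The Polycomb group genes, their antagonists, held peaks too. Of 17 Polycomb group genes, 15 had a peak in the body or within 5 kb and 10 within 1 kb of a TSS. Of all protein-coding genes, 52.5% and 26.6% had one. The Polycomb group genes were longer too (median 7137 bp, against 2164.5 bp), and in the longest quartile of genes 65.6% and 38.7% had one. The strongest peaks on the Polycomb list were counted for ph-p (1319), phol (732) and Psc (413). The phol peak lay 119 bp from the TSS of CG3437 and 1507 bp from that of phol. The Psc peak was intergenic, 4170 bp from the Psc TSS. Side by side, the share with a summit within 1 kb of a TSS was 58.8% (36.01 to 78.4%) for these and 14.3% (2.57 to 51.3%) for the 7 members. In the ranked list at the IDR limit the order turned, with 71.4% (35.9 to 91.8%) for the members and again 58.8% for the Polycomb group genes, a comparison added after the data were seen. The members' share in that list counts tara, whose summits this close missed the limit of 2 between replicates (−log10 values of 0.236, 0.619 and 1.94). Such values were not computed for the Polycomb group genes. The intervals overlap in both lists and cover counting error only, over genes chosen with earlier results known. The differences were not tested.

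**Figure D5:**
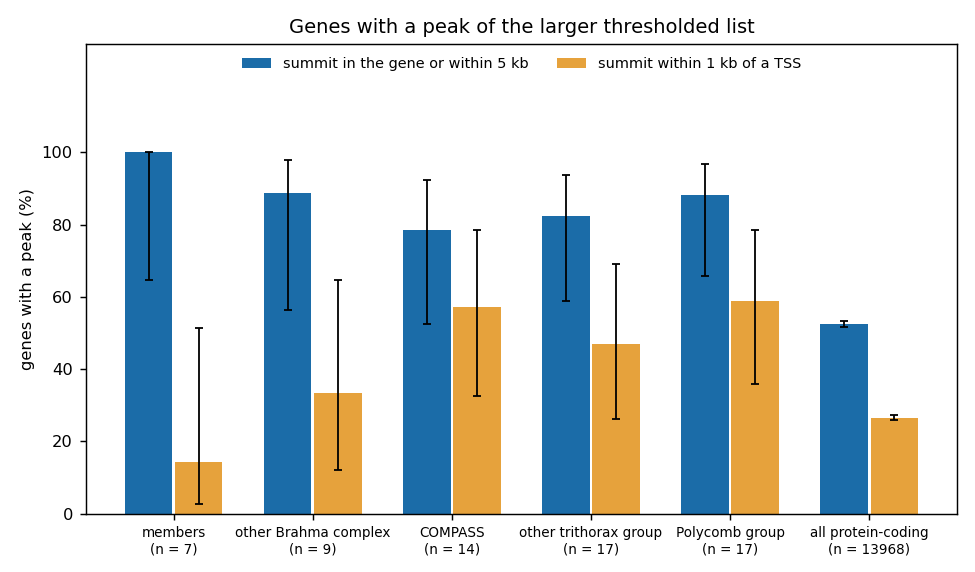
Bars give the percentage of genes in each list with a peak of the larger thresholded list, in the gene or within 5 kb (blue) or within 1 kb of a TSS (orange), with Wilson 95% intervals as error bars and the number of genes under each name. All 7 members have a peak by the wider rule and 1 by the narrower, against 52.5% and 26.6% of all protein-coding genes. The ranked list, not drawn, gives 5 members by the narrower rule, tara through summits that missed the limit between replicates.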

How the data were processed

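NFAT-eGFP ChIP-seq peak lists of 2 biological replicates (1 group, per the labels) were used, 8 lists on dm6 per the deposited file descriptions. The signal and the −log10 q-value per peak are the authors', as are the summit offsets. The deposited ranked lists have no header, and their IDR score was read as the −log10 of the global IDR from the usual column order of such files. Per the file descriptions, replicate lists came from that replicate alone. The labels and file descriptions name no aligner or peak caller, and the lists give no read depth.

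Summits on the chromosome arms, 4 and Y included, were assigned to Ensembl genes (BDGP 6.54). Peaks were matched between lists by an overlap of at least 1 bp. A left-out peak had a −log10 global IDR of 2 or more in the ranked list and was absent from the larger thresholded list. Motifs were searched 50 bp to either side of a summit. All 7 members are named, with the gene nearest to each thresholded peak, the 10 strongest of the wider list and the 3 strongest Polycomb group genes. Of the listed symbols, 1 was matched through a synonym and 1 Polycomb symbol had no match.

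Members and lists were chosen with earlier results of these data known, so no test was made. The counting steps were checked on simulated data. Python 3.11.15, NumPy 2.4.6, pandas 2.3.3, SciPy 1.17.1 and matplotlib 3.10.9 were used.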

Additional observations from a re-analysis of the deposited data

How the results depend on the processing

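The count of 7 members with a peak was 7 in the conservative list (46.4% of all genes) and the ranked list (53.2%). It was also 7 in the stronger 50% of peaks (36.7%) and with a 10 kb flank (66.1%). It was 3 with the gene body alone (13.9%) and 1 within 1 kb of a TSS (26.6%). Leaving out a replicate gave 5 (replicate 1 alone, 33.1% of all genes) to 7 (replicate 2 alone, 47.5%). The 17 peaks became 39 in the ranked list, 4 with the gene body alone, 1 within 1 kb of a TSS and 9 to 16 with a replicate left out. The single member with a peak within 1 kb of a TSS became 5 in the ranked list, and stayed at 1 in each of the 5 other settings. The 33 of 40 genes of the wider list became 13 with the gene body alone and 19 within 1 kb of a TSS, and 25 to 31 with a replicate left out. The shares of all genes given above for these settings apply here too. The lower counts for narrower windows follow from their construction. No paired analysis was possible because there is 1 group. Against the exact 95% binomial interval of the reported value, 17 percentiles of the members' strongest peaks under the alternatives lay outside and 9 inside. For percentiles the interval takes the 4899 peaks of the larger list as trials. It therefore does not measure how far the rank of a peak varies between lists or replicates. For the motif shares 2 lay outside and 28 inside, but with 17 windows that interval is wide, and CGATA fell from 41.2% to 25% of summits with replicate 1 alone. The strongest thresholded trx peak fell from above 54.2% of its list to above 26.3% in replicate 1 alone. With q-values, which are tied at the top, the strongest ash1, brm, osa and tara peaks stood above 85.6% of the list. Depth is unknown, so a gene without a peak is not shown to be unbound.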
